A study of Mus with 4 samples.

Results

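The genes described here encode the ephrin, semaphorin, netrin and Slit guidance cues and their receptors. They were chosen by name: every probe set whose single symbol in the platform annotation belongs to the Eph receptors, ephrins, semaphorins of classes 3 to 7, plexins, neuropilins, netrins, Unc5 receptors, Slits or Robos. This gave 149 of 45037 probe sets and 68 of 18193 genes, 1 of which, Plxna4os1, is an opposite-strand transcript at a plexin gene and not a receptor. The rule uses gene symbols only, but it was set with earlier results of these data known.

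Expression was measured in PPS-ICBR cells, a mouse prostate cancer line that the labels assign to the C57Bl6 strain. Cells seeded at a confluency of 60% were kept overnight with 5 µM vorinostat, a hydroxamic acid that inhibits histone deacetylases, or with DMSO alone, its solvent. Each group has 2 arrays. The labels do not say whether these were grown as separate cultures, and the p-values therefore measure only a spread between arrays, which may be technical. All 4 arrays come from 1 line, and the labels do not say whether it is a clone or which alleles it carries. The 2 groups share the line and the medium volume (10 mL). A DMSO volume is recorded for the DMSO group only (5 µL), so equal solvent in the 2 groups is not established. With so few arrays the precision of every value is limited. In RNA from whole cultures, fewer cells that express a gene and less RNA per cell cannot be told apart.

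Guidance cues steer growing axons and also act in epithelia, vessels and tumours, where they set cell repulsion, adhesion and motility. Ephrins sit in the membrane and signal on contact to Eph receptor tyrosine kinases, the A class being held by a lipid anchor and the B class spanning the membrane. Most secreted class 3 semaphorins bind neuropilins, which pair with plexins to signal, whereas membrane-bound semaphorins mostly bind plexins directly. Netrins act through Dcc, neogenin and Unc5 receptors, and Slits through Robo receptors.

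Values are the deposited log2 expression values, and each change is the mean of the vorinostat arrays minus the mean of the DMSO arrays, with its standard error (SE), where a change of 1 is a doubling. A gene is said to rise or fall where limma's test, adjusted by Benjamini-Hochberg over all 45037 probe sets, gave an adjusted p under 0.05. A gene is represented by the probe set that was brightest when averaged over the 4 arrays. A probe set is called near background in a group where, on each array, it does not exceed by more than 1 log2 unit the brightest of the platform's tryptophan-pathway controls, whose transcript is not added to the sample. That margin lay between 3.54 and 3.78 on the 4 arrays. Where a gene was near background in 1 group only, its fold is given as a lower bound, measured from the margin.

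Of 9 epithelial markers measured, the luminal keratin Krt18 lay between 11.37 and 11.51 and Cdh1, which encodes E-cadherin, between 7.76 and 7.97 on the 4 arrays. The basal keratins Krt5 (4.52 to 4.78) and Krt14 (5.02 to 5.43) lay nearer to the background margin. The prostate transcription factor Hoxb13 lay between 8.24 and 8.82, while Pbsn, a secretory protein of the mature mouse prostate, was near background in both groups. Of 5 endothelial markers, 4 were near background in both groups (Pecam1, Tek, Tie1 and Vwf), and so were 3 of 5 immune markers, Ptprc, Itgam and Adgre1. Of the other immune markers, Csf1r lay between 4.70 and 5.04 and did not pass, and the T-cell gene Cd3e rose by 0.43 (SE 0.09), from 4.50 to 4.94. Within the epithelial list Krt8 fell by 1.05 (SE 0.12) and Foxa1 by 0.96 (SE 0.09), Hoxb13 rose by 0.54 (SE 0.08), and 6 did not pass. Of 6 markers of a mesenchymal state, Vim rose by 0.40 (SE 0.08), Fn1 by 0.66 (SE 0.14) and Snai2 by 0.81 (SE 0.08), Zeb2 fell by 0.89 (SE 0.12), Zeb1 did not pass and Cdh2 was near background. The fibroblast list was mixed, since Col1a2 was bright (12.40 to 12.68) and Lum near background. Pdgfra rose by 1.54 (SE 0.09) and Dcn by 1.26 (SE 0.10). Col1a1 (-0.31, SE 0.15) and Col1a2 (-0.21, SE 0.09) did not pass, and both were lower on both vorinostat arrays than on either DMSO array. The 5 log2 values of this list summed to 36.81 and 37.29 on the DMSO arrays and to 38.72 and 39.65 with vorinostat. Of 6 neuronal markers, 3 rose, beside 20.9% of all genes: Map2 by 2.62 (SE 0.08), Stmn2 by 1.86 (SE 0.13) and Tubb3 by 1.70 (SE 0.17). Rbfox3 and Syp did not pass, and Snap25 was near background in both groups. The log2 values of the 6 neuronal markers summed to 26.92 and 27.15 on the DMSO arrays and to 33.47 and 33.70 on the vorinostat arrays. Those of the 9 epithelial markers summed to 67.96 and 67.87 in DMSO and were lower with vorinostat, at 66.20 and 66.52. The sums of the 6 mesenchymal markers overlapped, at 49.47 and 49.36 in DMSO and 49.30 and 50.45 with vorinostat. The part of these markers in the results on guidance genes was not tested.

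Of the 68 guidance genes, 19 rose, 7 fell and 42 did not pass. Among all genes 20.9% rose and 18.9% fell, against 27.9% and 10.3% of the guidance genes, a description of this set and not a test of it. By measured value, 7 guidance genes rose and 1 fell by 2-fold or more, where 5.74% and 6.17% of all genes did. Of the 7, Sema3d was near background in both groups. The choice of probe set uses all 4 arrays, those with vorinostat included. With the probe set brightest in DMSO instead, Efna3 (0.67) and Epha3 (0.91) rose by less than 2-fold. The arrays of the groups did not overlap in 48 guidance genes, against 68.9% of all genes. Vorinostat was above in 33 and below in 15 of them, and among all 18193 genes above in 6793 and below in 5745. The median change was 0.15 over the guidance genes and 0.03 over all genes. By probe set, 38 of 149 rose and 19 fell, with 16.5% and 15.7% over the whole table. At every probe set, 14 of the 68 genes were near background in both groups, among them all 4 Robos, Epha4, Epha5, Epha6 and Plxnc1. Of the other 54 genes, 17 rose and 7 fell, beside 26.8% and 24.8% of all genes above the margin.

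The counts depended on the scaling and on each array. When 7 reference genes (mean change -0.37) set the scale of each array, 47 guidance genes rose and 1 fell, and 97.9% of the changed genes were higher, against 73.1% on the deposited scale. On the deposited scale 3806 of all 18193 genes rose and 3444 fell. Reference-gene scaling adds 0.37 to every change, and the median over all probe sets went from 0.01 to 0.38. Its counts were not compared with all genes and do not set the guidance genes apart. It rests mainly on Gusb (-1.42) and Polr2a (-0.75). With the other 5 reference genes alone, whose mean was -0.08, 22 rose and 5 fell. Under the first of these scalings the 7 guidance genes that fell stayed below 0, but Sema5a was the 1 of them that passed. Omission of DMSO 1 left 11 genes that rose and 3 that fell, and omission of DMSO 2 left 14 and 2. Omission of Vorinostat 1 left 12 and 2, and omission of Vorinostat 2 left 11 and 3.

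**Figure D1:**
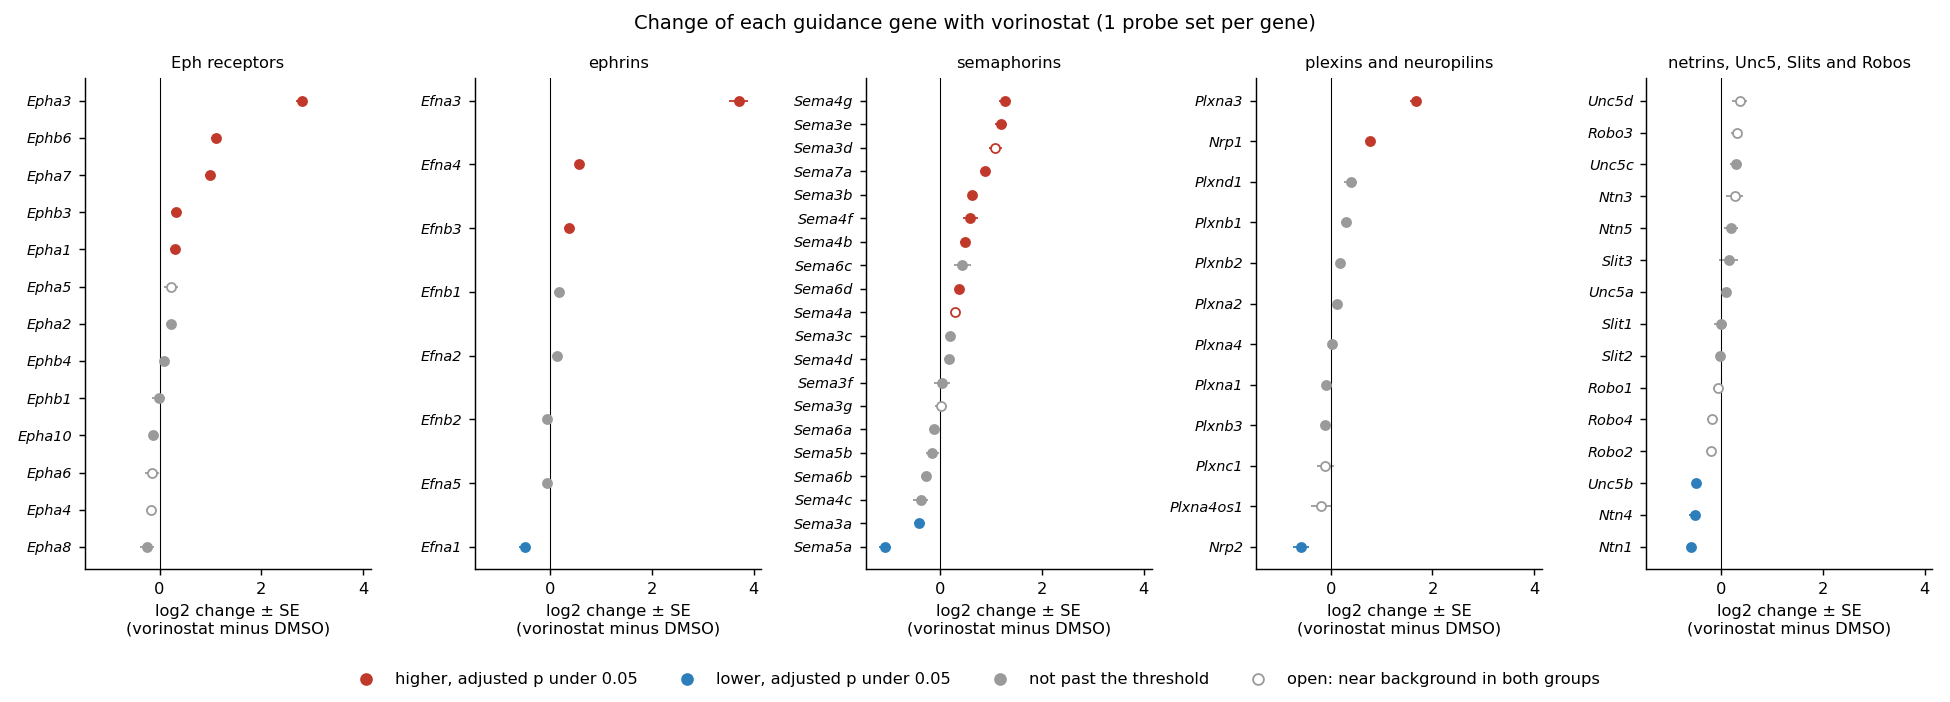
The log2 change of each of the 68 guidance genes (vorinostat minus DMSO, points with SE bars, 1 probe set per gene), in panels by role. Red points rose, blue points fell, grey points did not pass, and open points were near background in both groups. Efna3 (3.71) and Epha3 (2.79) lie farthest to the right and Sema5a (-1.09) farthest to the left. The panel of netrins, Unc5, Slits and Robos holds no red point, and 6 of its 15 points are open.

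Of 13 Eph receptor genes, 5 rose, 0 fell and 8 did not pass by limma, beside 20.9% and 18.9% of all genes, and 0 fell also at an unadjusted p under 0.05. Epha3, a receptor of A-class ephrins, read 2.69 and 2.66 on the DMSO arrays and 5.58 and 5.35 on the vorinostat arrays. Both DMSO arrays lay near background and both vorinostat arrays well above it. The measured change was 2.79 (SE 0.11, limma adjusted p = 0.000177), which is at least 3.54-fold when measured from the margin. All 4 probe sets of Epha3 passed as higher, and all were near background in DMSO. Of the other 3, the brightest in DMSO gives a lower bound of 1.04-fold (measured change 0.91). For the remaining probe sets no fold is given. The measured mean of the 4 changed by 1.54.

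Epha7, another A-class receptor, was 4.46 and 4.63 in DMSO and 5.49 and 5.58 with vorinostat. The groups did not overlap, and the change was 0.99 (SE 0.10, limma adjusted p = 0.00126). Other probe sets of Epha7 rose by 2.29 (SE 0.11) and 1.26 (SE 0.14), while the last, near background in both groups, did not pass (0.28). Probe sets of Epha7 therefore gave folds from 1.99 to 4.89 among those that rose.

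Ephb6, a receptor whose kinase domain lacks catalytic activity, was 4.75 and 4.59 in DMSO and 5.72 and 5.84 with vorinostat. Both vorinostat arrays stood above both DMSO arrays, with a change of 1.10 (SE 0.10, limma adjusted p = 0.000967), or 2.15-fold. Ephb3, which positions cells in the intestinal crypt, was 6.09 and 6.25 in DMSO and 6.50 and 6.48 with vorinostat. Its change of 0.32 (SE 0.09) passed narrowly (limma adjusted p = 0.0493) and did not pass without any 1 of the 4 arrays, with changes from 0.24 to 0.40 and adjusted p from 0.0667 to 0.201. Epha1 also passed narrowly, with a rise of 0.30 (SE 0.08, limma adjusted p = 0.0459), from 3.90 to 4.20, close above the background margin.

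Epha2, the main EphA receptor of many epithelial tumours, was bright in both groups (8.81 and 8.66 in DMSO, 8.90 and 9.01 with vorinostat) and did not pass (0.22, SE 0.09, limma adjusted p = 0.143). Ephb4, the receptor of ephrin-B2 in vessels, was between 6.79 and 6.90 on all arrays, with a change of 0.08 (SE 0.08). Epha8, Epha10 and Ephb1 did not pass either, with changes of -0.25, -0.12 and -0.02. Under reference-gene scaling these 3 turned positive, at 0.11, 0.24 and 0.35. Epha4, Epha5 and Epha6 were near background in both groups at all their probe sets, 2 of which, both of Epha4, fell by 0.48 and 0.52 within that range.

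Of 8 ephrin genes, 3 rose, 1 fell and 4 did not pass, beside the same shares of all genes, and none was near background in both groups. Efna3, a lipid-anchored ligand of EphA receptors, showed the largest change of any guidance probe set. It read 3.65 and 4.09 in DMSO, just above the background margin, and 7.40 and 7.75 with vorinostat, a gap far wider than the spread between the arrays of either group. The change was 3.71 (SE 0.19, limma adjusted p = 0.000267), or 13.1-fold. The other probe set of Efna3, which in DMSO gave the higher value, rose from 4.33 ± 0.14 to 5.00 ± 0.26 (SD, n = 2), a change of 0.67 (SE 0.15). Both probe sets passed in the same direction, but the size of the rise rests on which is read, and their mean changed by 2.19.

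Efna4 and Efna1 are the genes next to Efna3 in the RefSeq annotation of GRCm38.p6, with no protein-coding gene between them, and moved in opposite directions. Efna4 was 6.22 and 6.36 in DMSO and 6.87 and 6.86 with vorinostat, a rise of 0.57 (SE 0.09, limma adjusted p = 0.00581). Without Vorinostat 1 (0.57, adjusted p = 0.0613) or Vorinostat 2 (0.58, adjusted p = 0.0553) it missed the threshold. Efna1, the main ligand of Epha2, was 7.34 and 7.29 in DMSO and 6.70 and 6.94 with vorinostat. The groups did not overlap, and Efna1 fell by 0.50 (SE 0.11, limma adjusted p = 0.0191), with -0.43 (SE 0.09) at a second probe set that also passed. The fall of Efna1 missed the threshold without DMSO 1, DMSO 2 or Vorinostat 1 (adjusted p 0.0947 to 0.134).

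Among the transmembrane ephrins, Efnb3 rose from 4.43 ± 0.11 to 4.81 ± 0.08 (SD, n = 2), a change of 0.37 (SE 0.10, limma adjusted p = 0.0356). It missed the threshold without any 1 of the 4 arrays (adjusted p 0.0775 to 0.186). Efnb2, the arterial ephrin, was between 9.02 and 9.16 on the 4 arrays, and its groups overlapped (-0.05, SE 0.09, or 0.32 under reference-gene scaling). Efnb1 did not pass at its brightest probe set (0.18, SE 0.09), while a dimmer one fell by 0.41 (SE 0.10, limma adjusted p = 0.0322), so its direction differed between probe sets. Efna2 (0.14) and Efna5 (-0.05) did not pass.

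**Figure D2:**
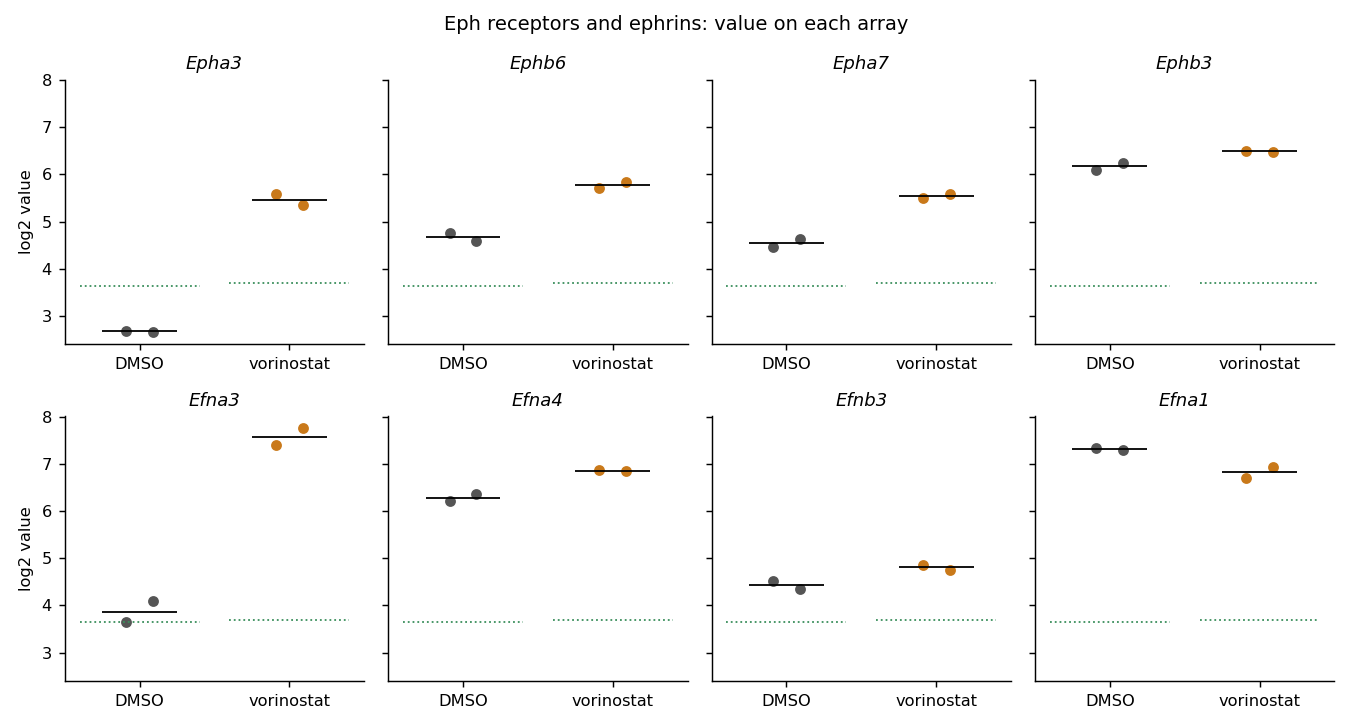
Log2 value on each array for the Eph receptors and ephrins that changed most, DMSO in grey and vorinostat in orange, with a black line at the mean of the 2 arrays and a dotted green line at the mean background margin of the group. Epha3 starts below the margin in DMSO (2.69 and 2.66) and Efna3 just above it (3.65 and 4.09), and Efna1 is the 1 gene shown whose vorinostat arrays lie below its DMSO arrays.

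Of 20 semaphorin genes, 9 rose, 2 fell and 9 did not pass, beside 20.9% and 18.9% of all genes. Of the 9 that rose, Sema3d and Sema4a were near background in both groups. Among the secreted class 3 members, Sema3e, the ligand of plexin D1, read 6.44 and 6.25 in DMSO and 7.65 and 7.43 with vorinostat. Both vorinostat arrays stood above both DMSO arrays, and the change was 1.20 (SE 0.12, limma adjusted p = 0.00135), or 2.29-fold. All 4 of its probe sets rose, by 1.20 to 1.62. Sema3b, a class 3 semaphorin known as a candidate tumour suppressor, was 4.37 and 4.43 in DMSO and 5.06 and 5.01 with vorinostat. It rose by 0.63 (SE 0.08, limma adjusted p = 0.0031), and of its other 2 probe sets 1 rose by 0.96 (SE 0.15) and 1 did not pass (0.55, SE 0.23).

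Sema3a, the classical repellent that binds neuropilin-1, went the other way. It was 7.11 and 7.27 in DMSO and 6.67 and 6.90 with vorinostat, and fell by 0.41 (SE 0.12, limma adjusted p = 0.0481). This probe set did not pass without any 1 of the 4 arrays (adjusted p 0.0733 to 0.22). Both other probe sets of Sema3a also fell, the first by 0.83 (SE 0.14) and the second, near background with vorinostat, by at least 1.76-fold, and the measured mean of the 3 changed by -0.74. Sema3a lies beside Sema3d in the GRCm38.p6 gene order and 3 protein-coding genes from Sema3e, the gene that rose. Sema3d passed with a change of 1.08 (SE 0.13), but was near background in both groups, so no fold is given.

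Sema3c, which is a known androgen receptor target in prostate cancer, was 9.97 and 9.91 in DMSO and 10.05 and 10.21 with vorinostat, without overlap. Its change of 0.19 (SE 0.09) did not pass (limma adjusted p = 0.183), nor did a second probe set (0.24). Sema3f did not pass at its brightest probe set (0.03, SE 0.15), whose probes may also bind related transcripts, whereas a dimmer one rose by 0.54 (SE 0.10, limma adjusted p = 0.0128). Sema3g was near background in both groups.

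Of 6 membrane-bound class 4 semaphorins, 4 rose and 2 did not pass, beside 20.9% of all genes that rose and 18.9% that fell. Sema4g was 3.53 and 3.69 in DMSO, near background, and 4.76 and 5.00 with vorinostat. The change was 1.27 (SE 0.12, limma adjusted p = 0.00106), or at least 2.36-fold from the margin. Sema4b rose by 0.49 (SE 0.09) from 7.46, with a second probe set at 0.66 (SE 0.14). Sema4f rose by 0.59 (SE 0.15, limma adjusted p = 0.0345) from 5.00 ± 0.30 to 5.59 ± 0.02 (SD, n = 2). A dimmer Sema4f probe set, singled out after its values were seen, went from 2.94 and 3.17 to 5.99 and 6.08, at least 5.26-fold, and its probes too may bind related transcripts. Sema4a passed (0.29) while near background in both groups. Sema4c (-0.39, SE 0.14, limma adjusted p = 0.0992) and Sema4d, the ligand of plexin B1 (0.17, SE 0.10), did not pass.

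Sema5a, a transmembrane semaphorin with thrombospondin repeats, was the guidance gene that fell most. It was 6.81 and 6.52 in DMSO and 5.60 and 5.54 with vorinostat, with no overlap. The change was -1.09 (SE 0.12, limma adjusted p = 0.00192). Further probe sets fell by 1.12 (SE 0.22) and 0.68 (SE 0.09), and the last, near background, did not pass (-0.08). Under reference-gene scaling Sema5a changed by -0.72. Its paralog Sema5b did not pass (-0.16, SE 0.13).

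Of the class 6 semaphorins, Sema6d rose by 0.37 (SE 0.08), from 5.79 on both DMSO arrays to 6.16 and 6.17. Its other, dimmer probe sets did not pass, at -0.11, -0.15 and, near background in both groups, 0.12. Sema6a, Sema6b and Sema6c did not pass, with changes of -0.12, -0.29 and 0.43. Sema7a, the lipid-anchored member, was 4.01 and 3.93 in DMSO and 4.87 and 4.81 with vorinostat. It rose by 0.87 (SE 0.08, limma adjusted p = 0.00119), or 1.83-fold, while its other probe set was near background and did not pass (-0.07), so that the mean of the 2 changed by 0.40. Plxnc1, the plexin that binds Sema7a, was near background in both groups at all 6 of its probe sets.

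Among the semaphorin receptors, 2 of 11 genes rose, 1 fell and 8 did not pass, beside 20.9% and 18.9% of all genes. Plxna3, a co-receptor with neuropilins for class 3 semaphorins, was 6.00 and 6.13 in DMSO and 7.64 and 7.82 with vorinostat. Both vorinostat arrays stood well above both DMSO arrays, with a change of 1.67 (SE 0.10, limma adjusted p = 0.000366), or 3.17-fold. Its other probe set rose by 1.59 (SE 0.16). The other A-class plexins did not pass, with changes of -0.09 for Plxna1, 0.12 for Plxna2 and 0.03 for Plxna4, of which Plxna1 turned to 0.28 under reference-gene scaling.

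The neuropilins moved in opposite directions. Nrp1, the receptor of Sema3a and of VEGF-A, was 9.14 and 8.98 in DMSO and 9.84 and 9.83 with vorinostat. It rose by 0.77 (SE 0.09, limma adjusted p = 0.00241), and 2 of its 3 other probe sets rose, by 0.85 and 0.81. Nrp2, which binds Sema3f and VEGF-C, was 9.57 and 9.38 in DMSO and 8.70 and 9.09 with vorinostat. The groups did not overlap, though Vorinostat 1 and Vorinostat 2 differed by more than the gap between Vorinostat 2 and DMSO 2. Nrp2 fell by 0.58 (SE 0.15, limma adjusted p = 0.0387), and 2 other probe sets fell by 0.63 and 0.57. The fall missed the threshold without DMSO 1 (-0.48), DMSO 2 (-0.67) or Vorinostat 1 (-0.39), with adjusted p from 0.133 to 0.23.

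Plxnd1, the receptor of Sema3e, did not pass (0.39, SE 0.13, limma adjusted p = 0.0783), with 6.43 and 6.13 in DMSO and 6.58 and 6.76 with vorinostat. Plxnb1 missed narrowly (0.30, SE 0.09, limma adjusted p = 0.0563). Plxnb2, which was 9.26 to 9.46 on the 4 arrays, changed by 0.18 (SE 0.08) and Plxnb3 by -0.10 (SE 0.09), neither of which passed. Plxna4os1 was near background in both groups.

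Of 15 netrin, Unc5, Slit and Robo genes, 0 rose, 3 fell and 12 did not pass by limma, and at an unadjusted p under 0.05 1 was higher. The share that fell, 20%, was near the 18.9% of all genes, while 20.9% of all genes rose. Near background in both groups were 6 of the 15, the 4 Robos, Ntn3 and Unc5d. Under reference-gene scaling, which moved the median change of all probe sets to 0.38, 8 of the 15 rose and 0 fell. The shares of all genes above are on the deposited scale, and none is given for that scaling. Over their 25 probe sets 1 rose, that of Robo3, which was near background in both groups. Ntn1, the founding netrin, was 6.72 and 6.85 in DMSO and 6.24 and 6.15 with vorinostat, and fell by 0.58 (SE 0.09, limma adjusted p = 0.00599). Its other probe set was near background in both groups (-0.00), and the mean of the 2 changed by -0.29. Unc5b, a receptor of netrin-1 that can signal cell death without its ligand, was 7.22 and 7.31 in DMSO and 6.79 and 6.74 with vorinostat, and fell by 0.50 (SE 0.08, limma adjusted p = 0.00802). A second Unc5b probe set fell by 0.78 (SE 0.11). Ligand and receptor thus both read lower, on both vorinostat arrays, than on either DMSO array.

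Ntn4, a netrin of basement membranes that binds laminin, was 8.51 and 8.30 in DMSO and 7.83 and 7.96 with vorinostat. It fell by 0.51 (SE 0.11, limma adjusted p = 0.0173), and by 0.61 (SE 0.11) at a second probe set. These 3 falls missed the threshold in some omissions of 1 array: Ntn1 without DMSO 2 (-0.52, adjusted p = 0.0541) or Vorinostat 2 (-0.54, adjusted p = 0.0594), Unc5b without DMSO 2, Vorinostat 1 or Vorinostat 2 (adjusted p 0.0584 to 0.0674), and Ntn4 without DMSO 1, Vorinostat 1 or Vorinostat 2 (adjusted p 0.0776 to 0.128). Slit2, a repellent ligand, was 8.49 to 8.64 on the 4 arrays, with overlap, and changed by -0.01 (SE 0.10), or by 0.36 under reference-gene scaling. Its receptors Robo1 and Robo2 were near background in both groups at all their probe sets. Unc5a (0.10), Unc5c (0.29), Slit1 (-0.01), Slit3 (0.15) and Ntn5 (0.19) did not pass.

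**Figure D3:**
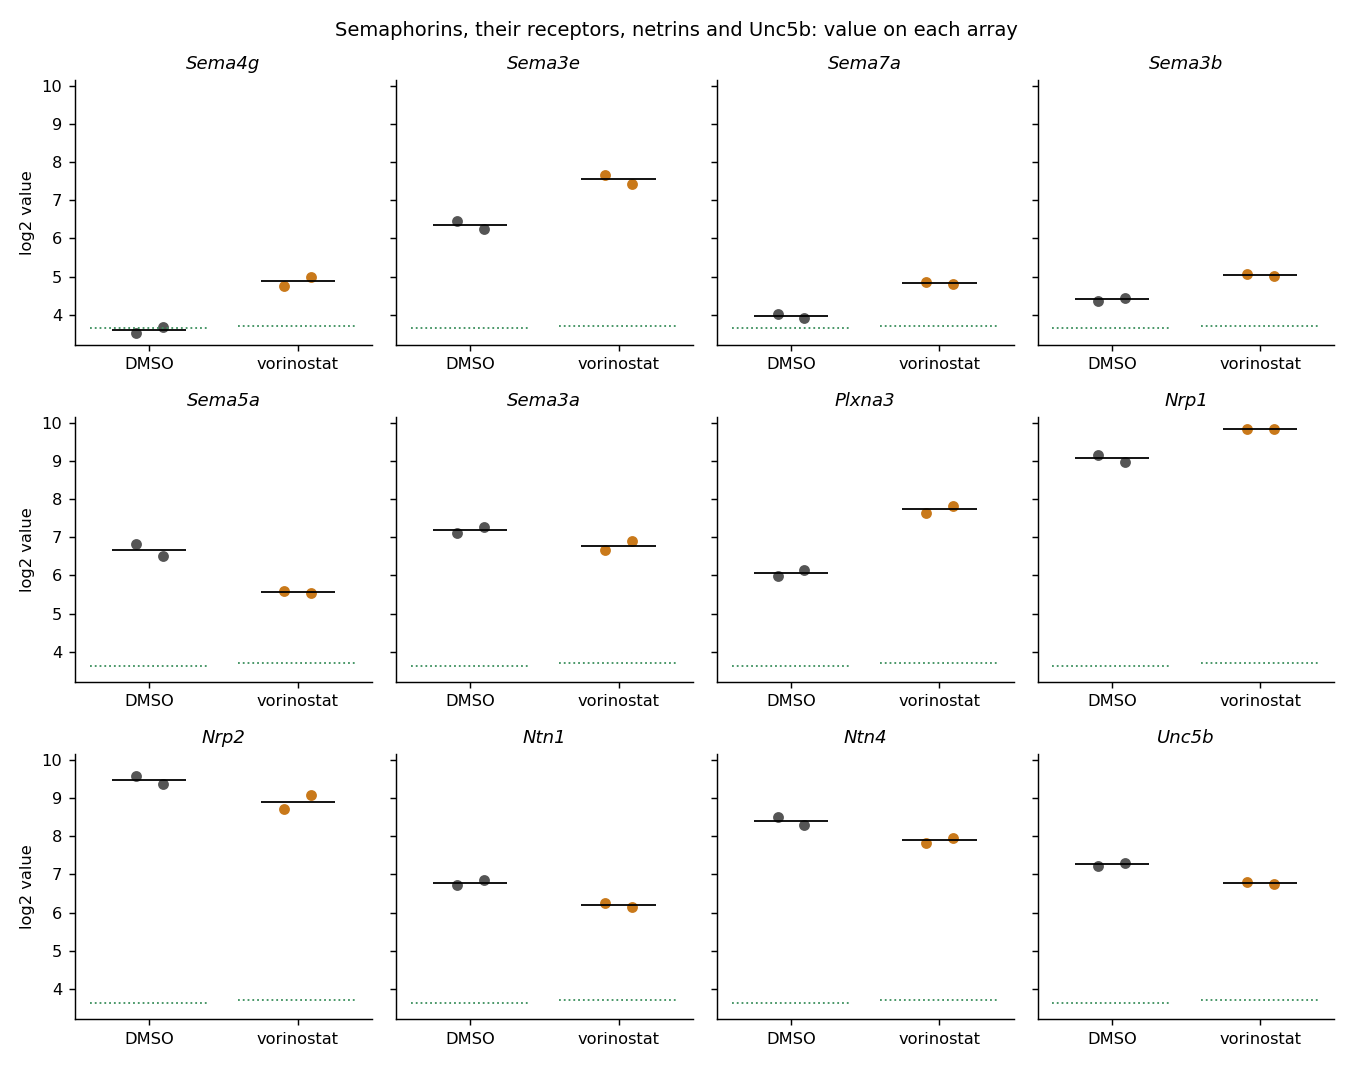
Log2 value on each array for semaphorins, semaphorin receptors, netrins and Unc5b, DMSO in grey and vorinostat in orange, with a black line at the mean of the 2 arrays and a dotted green line at the mean background margin of the group. Plxna3 shows the widest rise (6.00 and 6.13 against 7.64 and 7.82), Nrp1 is higher and Nrp2 lower with vorinostat, and the netrins and Unc5b are lower with vorinostat.

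Probe sets of 1 gene differed in their calls. Of 44 guidance genes with more than 1 probe set, 18 had at least 2 that passed, and in 0 of them did probe sets pass in opposite directions. In 14 genes some probe sets passed and others did not. Of the 38 and 19 probe sets that passed, 7 in all were near background in both groups.

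**Figure D4:**
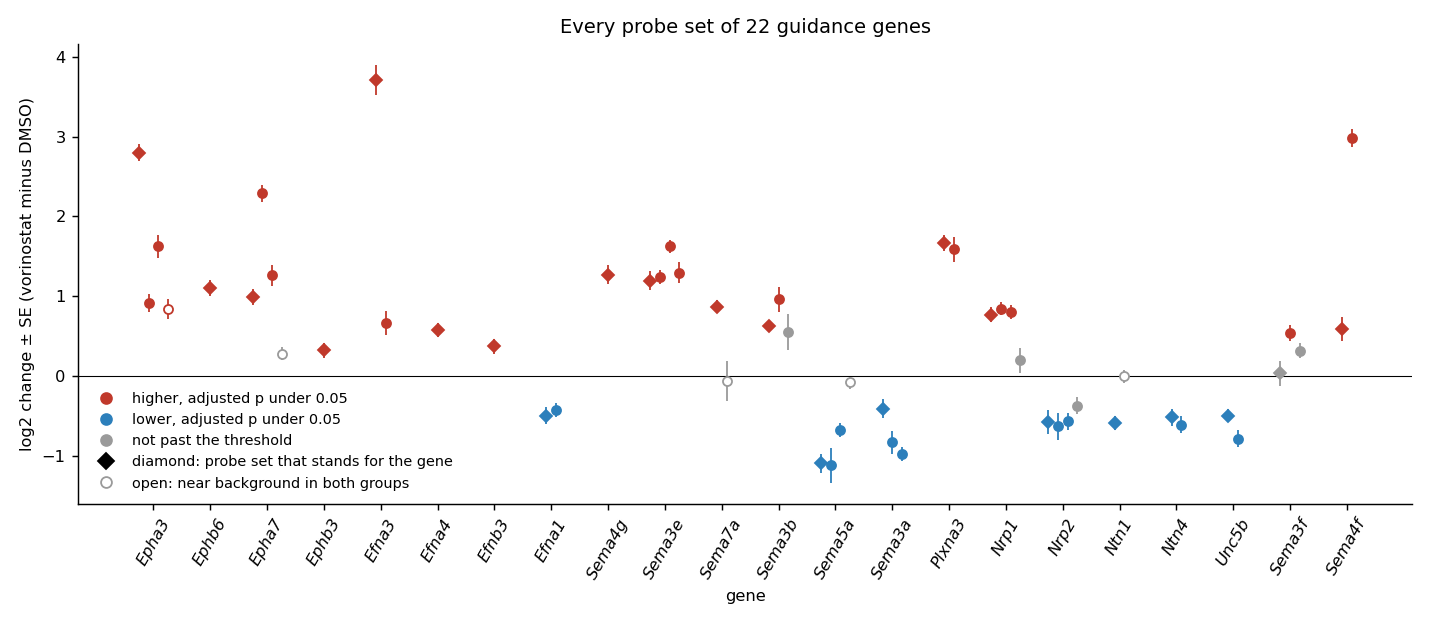
The log2 change (vorinostat minus DMSO) with its SE at every probe set of 22 guidance genes, with a diamond for the probe set that stands for the gene and colours and open points as in the plot of changes by gene. Sema3e, Plxna3, Nrp2 and Unc5b have closely grouped probe sets, whereas those of Efna3 (0.67 and 3.71) and Sema4f (0.59 and 2.98) lie far apart.

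**Figure D5:**
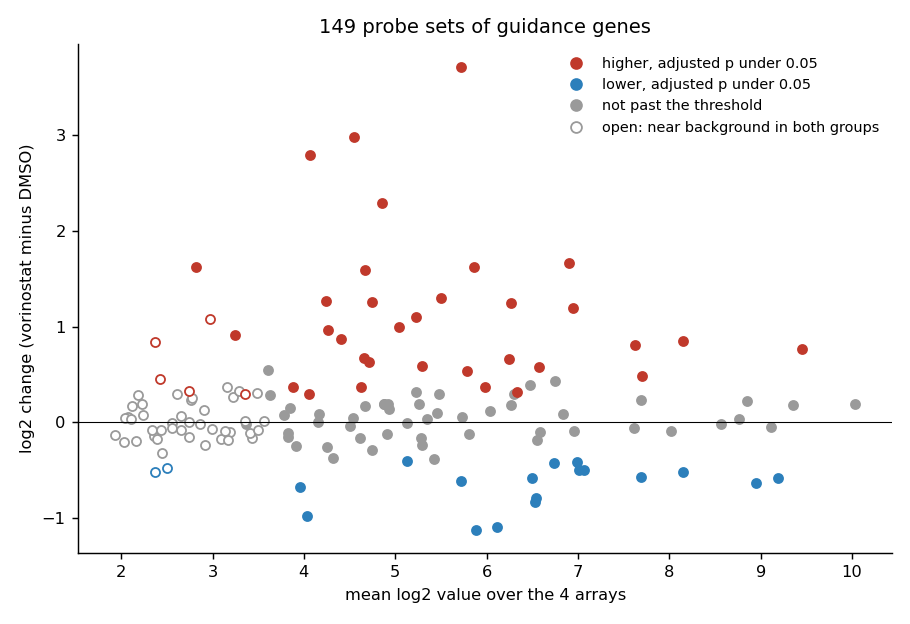
The log2 change of all 149 guidance probe sets (vertical axis) against their mean log2 value over the 4 arrays (horizontal axis), red where higher, blue where lower, grey where not passed and open where near background in both groups. The 4 measured changes above 2 belong to Efna3, Sema4f, Epha3 and Epha7, at mean values below 6, while probe sets with mean values above 8 changed by at most 0.85 in either direction.

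A list of co-receptors, other ligands, adaptors and cytoskeletal effectors of these receptors held 62 measured genes, of which 20 rose, 6 fell and 36 did not pass. Over all genes the shares were 20.9% and 18.9%, against 32.3% and 9.68% on the list, whose median change was 0.12. With DMSO 1, DMSO 2, Vorinostat 1 or Vorinostat 2 left out in turn, the partner genes that rose numbered 9, 11, 8 and 10, and those that fell 0, 2, 0 and 4. At an unadjusted p under 0.05, limma gave 6 lower where DMSO 1 was left out and 8 where Vorinostat 1 was. Under reference-gene scaling 44 rose and 0 fell, with 1 lower at an unadjusted p under 0.05. That scaling moved the median change of all probe sets to 0.38, and the share of all genes under it is not given.

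The adhesion molecule L1cam, a co-receptor of Sema3a with neuropilin-1, rose most, from 5.21 ± 0.42 to 7.39 ± 0.08 (SD, n = 2), a change of 2.18 (SE 0.20, limma adjusted p = 0.00111), or 1.21 as the mean of its probe sets. Limk1, the kinase that inactivates cofilin, rose by 1.62 (SE 0.11) from 5.99 to 7.61, or by 0.82 as the mean of its probe sets. Rnd1, a small GTPase that binds A- and B-class plexins, rose by 1.58 (SE 0.11) from 5.41 to 6.99. Nrcam, the partner of neuropilin-2, rose by 1.18 (SE 0.09), or by 0.45 as the mean of its probe sets.

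The largest falls on the list were those of Farp1 (-0.60, SE 0.09), an exchange factor linked to plexin A, the kinase Abl2 (-0.56, SE 0.10), the glypican Gpc1 (-0.49, SE 0.08) and the netrin receptor neogenin, Neo1 (-0.45, SE 0.09). Each missed the threshold without DMSO 1 or without Vorinostat 1, and Abl2, Gpc1 and Neo1 also without DMSO 2 (adjusted p 0.0581 to 0.0947 over these omissions), and the mean of the Neo1 probe sets changed by only -0.08 (adjusted p = 0.443). The netrin receptor Dcc did not pass (0.00, SE 0.15).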

How the data were processed

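RNA of 4 samples, 2 with DMSO and 2 with vorinostat, was hybridised to Affymetrix mouse arrays, per the labels' protocols. The values are the log2 values the authors deposited. RMA and the Transcriptome Analysis Console were used, per the submitters' processing notes, and other steps and the genome build are not given in the sources used here. RMA equalises the arrays' distributions, so these values cannot show a shift common to every transcript. The array medians were 4.19, 4.22, 4.26 and 4.28. After removal of 64 control probe sets, limma 3.58.1 in R 4.3.3 (lmFit, eBayes) was fitted two-sided to all 45037 probe sets, with no filter; the script was tested on simulated data. Gene names come from the platform annotation (1 symbol for 34945 probe sets, several for 932, not named here for 9160), and all 149 guidance probe sets matched a RefSeq gene. The genes named within each of 5 role groups are up to 4 rises and 4 falls past the threshold, not overlapping and brighter than background, and likewise on the partner list; other members are described more briefly. The members, lists and background margin were chosen with earlier results of these data known. Alternatives changed the scaling, normalization, filter, variance model, probe set choice, replicate block and arrays used. Of 11 epithelial markers listed 9, of 9 reference genes 7 and of 65 partner genes 62 were used.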

Additional observations from a re-analysis of the deposited data

How the results depend on the processing

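None of the 362 values of the 28 named genes under 13 alternatives changed sign; 302 kept their side of the threshold and 60 lost it, and 15 genes kept it in every alternative run, among them Efna3, Epha3, Epha7, Ephb6, Sema3e, Sema4g, Sema5a, Sema7a, Plxna3 and Nrp1. Reference-gene scaling, which moved the median of all probe sets from 0.01 to 0.38, gave 95 guidance probe sets higher and 6 lower, against 38 and 19, 47 guidance genes higher and 1 lower, against 19 and 7, and 44 partner genes higher and 0 lower, against 20 and 6. With the replicate block, 11 guidance probe sets and 4 guidance genes were lower, and 31 and 15 were higher. Deviations of same-numbered arrays from their group means had a correlation of -0.06. With 2 arrays per group this is a single value, which cannot show whether same-numbered arrays were handled as pairs. Omission of single arrays gave 23 to 26 guidance probe sets higher and 5 to 11 lower, 11 to 14 genes higher and 2 to 3 lower, and 8 to 11 partner genes higher and 0 to 4 lower; in these fits a lone array is assumed to vary like the other group. Among the alternatives chosen after seeing the data, 5 reference genes gave 47 probe sets higher and 14 lower. Above the background margin 17 genes were higher and 7 lower. For genes represented by their brightest DMSO probe set the numbers were unchanged (19 and 7), but sizes were not. Under that choice Efna3 changed by 0.67, against 3.71, and Epha3 by 0.91, against 2.79. The cause of these differences between alternatives was not tested, and a median centring gave 33 and 23 probe sets.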

Other observations

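Gene families outside the guidance set that also mark or guide growing neurites were looked at after the guidance values were known, so their counts are descriptions only, each by limma's adjusted p beside 20.9% of all genes higher and 18.9% lower. Of 4 teneurins, transmembrane partners of latrophilins, 2 fell and 0 rose (0 also at an unadjusted p under 0.05): Tenm4 by 1.19 (SE 0.09), from 6.87 to 5.68, and Tenm3 by 0.71 (SE 0.16). Of 4 latrophilin-family receptors, Adgrl2 fell by 1.39 (SE 0.11), from 8.80 to 7.42, and Adgrl3 by 0.63 (SE 0.17), while Adgrl1 rose by 0.99 (SE 0.09). Of 6 Slitrk genes 1 fell (Slitrk5, to near background), of 6 contactins 0 passed by limma (2 were higher and 0 lower at an unadjusted p under 0.05), and of 5 plexin-domain and Lrig genes Lrig2 rose by 1.03 (SE 0.10), Plxdc1 by 1.01 (SE 0.10) and Lrig3 fell by 0.40 (SE 0.09). Near background in both groups were 2 teneurins, 1 latrophilin, 4 Slitrk genes, 1 plexin-domain gene and 4 contactins, among them the 2 that were higher, Cntn3 and Cntn5. Of 12 protocadherins with numbered names, which mediate homophilic adhesion, 2 rose and 2 fell, the largest changes being Pcdh18 (-1.51, SE 0.12) and Pcdh1 (1.05, SE 0.13), and 4 were near background in both groups.

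Wnt ligands and their Frizzled receptors can also act as guidance cues. Of 19 Wnt genes, 1 rose (Wnt10a, 0.94, SE 0.12) and 3 fell, among them Wnt5a, which signals outside the beta-catenin pathway (-1.15, SE 0.10, from 8.53 to 7.38). Near background in both groups were 9 of the 19, including Wnt16, which is 1 of the 3 that fell (from 3.56 to 3.16). Of 11 genes named for Frizzled, 1 of them the opposite-strand transcript Fzd10os, 2 rose and 4 fell. Fzd4 rose by 1.02 (SE 0.08), and Fzd1 (-0.84, SE 0.08), Fzd5 (-0.68, SE 0.09) and Fzd2 (-0.64, SE 0.09) fell.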
